A study of Homo sapiens with 2 samples.

Results

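The 8 genes described here encode the core of the extrinsic apoptosis pathway and were chosen by name: the death receptors FAS, TNFRSF10A and TNFRSF10B, the adaptor FADD, the initiator protease CASP8, its inhibitor CFLAR, and the inhibitor-of-apoptosis (IAP) genes XIAP and BIRC2. All 8 were found by symbol among the 22965 gene IDs listed, and all 8 belong to the 15991 genes whose counts average 10 or more over both libraries, called well-counted from here on. They were measured by RNA-seq of total RNA in H460, a line grown from a human large-cell lung cancer. In the PKP2 library the pSin-puro vector delivered PKP2, which encodes plakophilin 2, a protein of the desmosome, and the vector library came from control cells of the same line. There was 1 library per group, both cultures were at passage 5 and both were grown in serum-containing medium. Whether either culture was a clone or a pool is not given in the sources used here.

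Death receptors sit on the cell surface and, once bound by their ligands, gather FADD and procaspase 8 into a complex in which caspase 8 cleaves and activates itself. CFLAR encodes c-FLIP, a relative of caspase 8 without protease activity that enters the same complex and limits that activation. Active caspase 8 then cleaves the executioner caspases, either directly or through BID and mitochondria, and the IAP proteins restrain the later steps.

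The PKP2 library held 20319137 counts and the vector library 23513304. PKP2 itself had 1330 counts in the PKP2 library and 181 in the vector library, an 8.66-fold difference (95% counting interval 7.41 to 10.2), in the direction of the labels. Of the epithelial markers, KRT19 had 11645 counts in the PKP2 library and 6501 in the vector library, a ratio of 1.08 on the log2 scale, while KRT8 had 9369 and 16537 (-0.58) and KRT18 3795 and 5954 (-0.41). EPCAM had 16 and 28 counts, and CDH1 is not listed. Of the markers of other cell types, PTPRC, CD3E, PECAM1, CDH5 and COL1A2 are not listed and VWF had 0 counts in the PKP2 library and 2 in the vector library. CD14 had 23 and 90, COL1A1 48 and 132, PDGFRB 208 and 111 and LUM 22 and 24. Their part in the results was not tested.

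CFLAR stood apart from the other 7 genes, at about 2 times its vector level, while FAS, TNFRSF10B, FADD and CASP8 were close to their vector levels and TNFRSF10A, BIRC2 and XIAP were modestly higher. With 1 library per group no test across samples exists and no ratio has a replicate check. Each ratio is the log2 of the level in the PKP2 library over that in the vector library, where the level is the CPM, a count scaled to library size. The intervals are at 95% and cover counting error only, since 1 library per group gives no spread between replicates. The reads carry no molecular identifiers and may repeat the same molecule, so the intervals may be too narrow even for counting error. Fewer expressing cells and less RNA per cell cannot be told apart in bulk RNA.

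CFLAR, CASP10 and CASP8 are neighbours on chromosome 2 and related in sequence, and the coding stretches below, lined up without gaps on the 4 codons that end 1 codon before the site, show where CFLAR lacks the catalytic cysteine of the caspases. Capitals mark the codon of the catalytic cysteine in CASP8 and CASP10, and the codon at the same place in CFLAR, which is a tyrosine codon. The sequences are from the principal transcripts in GENCODE release 29, written 5′ to 3′ on the coding strand.
CFLAR: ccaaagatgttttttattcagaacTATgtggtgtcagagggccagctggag
CASP8: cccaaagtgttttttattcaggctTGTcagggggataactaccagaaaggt
CASP10: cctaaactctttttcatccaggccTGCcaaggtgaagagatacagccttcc
The marked codon is number 360 of 480 in CFLAR, number 360 of 479 in CASP8 and number 401 of 522 in CASP10.

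CFLAR (ENSG00000003402) had 1222 counts in the PKP2 library and 706 in the vector library, or 60.7 and 29.8 CPM. That is a fold difference of 2.04 (interval 1.86 to 2.24) and a log2 ratio of 1.03 (interval 0.89 to 1.16), higher in the PKP2 library. It was the single one of the 8 genes past 2-fold, where 2.47% of the well-counted genes lay past 2-fold on the higher side and 4.61% on the lower side. It was also the single one past 1.5-fold on the higher side, with 6.87% of the well-counted genes. Its interval takes in 2-fold, and its ratio lay above those of 97.6% of these genes. The members were chosen with earlier results of these data known, so this place is a description.

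CASP8 (ENSG00000064012), the initiator caspase of the receptor complex, had 2362 counts in the PKP2 library and 2625 in the vector library, or 117 and 111 CPM. Its ratio was 0.08 (interval 0.004 to 0.17), a 1.06-fold difference. CASP10, a second initiator caspase of the same complex, had far fewer, 141 counts in the PKP2 library and 156 in the vector library, a ratio of 0.09 (interval -0.25 to 0.43). The gene just before CFLAR, NDUFB3, had a ratio of 0.003 (interval -0.13 to 0.14). The higher level of CFLAR was thus not shared by the genes on either side of it, which were looked up after their values were seen.

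**Figure D1:**
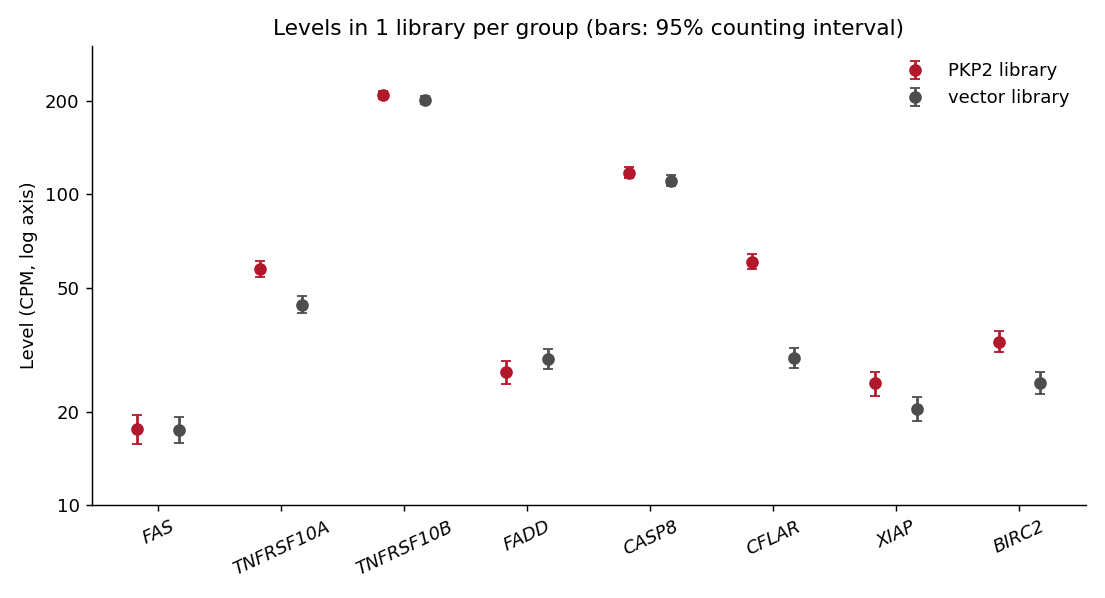
Level of each of the 8 genes in CPM (log axis) in the PKP2 library (left point of each pair, red) and the vector library (right point, grey), with bars for the 95% counting interval. CFLAR, at 60.7 against 29.8 CPM, has the widest gap, TNFRSF10A, BIRC2 and XIAP have smaller ones and the points of FAS lie at the same height.

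The balance of CFLAR to CASP8 differed between the libraries. Counted against CASP8 within a library, so that library size cancels, CFLAR had 0.517 counts per CASP8 count in the PKP2 library (interval 0.482 to 0.555) and 0.269 in the vector library (interval 0.247 to 0.292). The log2 ratio of CFLAR exceeded that of CASP8 by 0.94 (interval 0.79 to 1.10). Per kilobase of the principal transcript there were 0.0574 CFLAR transcripts per CASP8 transcript in the PKP2 library (interval 0.0536 to 0.0616) and 0.0299 in the vector library (interval 0.0274 to 0.0325). That scale rests on a CFLAR transcript of 14672 bases, most of it untranslated, against 1629 bases for CASP8, and CFLAR also has much shorter transcripts. The gap between the libraries does not depend on the lengths used, but the ratio within a library does. RNA levels say nothing of the long and short c-FLIP proteins, which gene counts cannot separate.

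FADD (ENSG00000168040), the adaptor that links the receptors to caspase 8 through its death and death effector domains, had 538 counts in the PKP2 library and 700 in the vector library, or 26.7 and 29.5 CPM. Its ratio of -0.14 (interval -0.31 to 0.02) was the lowest of the 8 and took in 0. Within a library there were 0.228 FADD counts per CASP8 count in the PKP2 library (interval 0.207 to 0.250) and 0.267 in the vector library (interval 0.245 to 0.290).

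The receptors differed from one another. TNFRSF10B (ENSG00000120889), the TRAIL receptor DR5, was by CPM the most abundant of the 8 genes, with 4203 counts in the PKP2 library and 4762 in the vector library, or 209 and 201 CPM. Its ratio was 0.06 (interval -0.004 to 0.12). TNFRSF10A (ENSG00000104689), the other TRAIL receptor with a death domain, DR4, had 1156 counts in the PKP2 library and 1047 in the vector library, or 57.4 and 44.1 CPM, a ratio of 0.38 (interval 0.26 to 0.50). The fold difference was 1.30. There were 0.275 TNFRSF10A counts per TNFRSF10B count in the PKP2 library (interval 0.257 to 0.294) and 0.220 in the vector library (interval 0.205 to 0.235), so the TRAIL receptors did not keep the same proportion.

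FAS (ENSG00000026103), the receptor of FAS ligand, was the least abundant by CPM, with 353 counts in the PKP2 library and 415 in the vector library, or 17.5 CPM in each. Its ratio was 0.003 (interval -0.21 to 0.21). The TRAIL receptor genes lie together on chromosome 8 with the decoy receptor genes TNFRSF10C and TNFRSF10D, which bind TRAIL but lack a working death domain. TNFRSF10D had 197 counts in the PKP2 library and 245 in the vector library, a ratio of -0.08 (interval -0.36 to 0.20), and TNFRSF10C had 6 and 9. TNFRSF10A therefore had the highest ratio of this cluster of 4 genes, although TNFRSF10C is too thinly counted to place (interval -2.12 to 1.31).

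Both IAP genes were slightly higher in the PKP2 library before any correction. BIRC2 (ENSG00000110330), which encodes cIAP1, a ubiquitin ligase of the TNF receptor complex, had 676 counts in the PKP2 library and 587 in the vector library, or 33.6 and 24.7 CPM, a ratio of 0.44 (interval 0.28 to 0.60). XIAP (ENSG00000101966), which binds and inhibits caspases directly, had 496 counts in the PKP2 library and 483 in the vector library, or 24.6 and 20.4 CPM, a ratio of 0.27 (interval 0.09 to 0.46). BIRC3, the cIAP2 gene that neighbours BIRC2 on chromosome 11, had 265 and 253 counts and lay at 0.30 (interval 0.05 to 0.56).

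Over the 8 genes the median log2 ratio was 0.18, beside -0.03 over all well-counted genes. Of the 8, 7 were above 0 and 1, FADD, was below, where 47.3% of all well-counted genes were above 0. The counting interval lay wholly above 0 for 5 of them (CFLAR, BIRC2, TNFRSF10A, XIAP and CASP8) and wholly below 0 for none, where 25.9% of the well-counted genes had an interval wholly above 0 and 28.8% one wholly below. Among the 28 pairs of the 8 genes, the interval of the difference in log2 ratio left out 0 in 19, with no adjustment over the pairs and no correction for base composition. The share among pairs of other well-counted genes was not computed, so this count is a description. The 19 pairs include all 7 with CFLAR, whose ratio exceeded the others by 0.59 (BIRC2, interval 0.38 to 0.80) to 1.17 (FADD, interval 0.96 to 1.39). TNFRSF10A, XIAP and BIRC2 could not be told apart from one another, and neither could CASP8, TNFRSF10B and FAS, nor XIAP from CASP8 or FAS, nor FADD from FAS.

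Levels of different genes can be compared per length of transcript. In CPM per kilobase of the principal transcript, CASP8 was the highest of the 8, at 72.0 in the PKP2 library and 67.9 in the vector library. TNFRSF10B followed at 50.3 and 48.4, TNFRSF10A at 21.2 and 16.3 and FADD at 14.5 and 16.0. At the low end BIRC2 had 8.26 CPM per kilobase in the PKP2 library and 6.08 in the vector library, FAS 6.84 and 6.82, CFLAR 4.14 and 2.03 and XIAP 2.87 and 2.37. The order thus changed between the libraries in 2 places: BIRC2 stood above FAS and CFLAR above XIAP in the PKP2 library, and the reverse held in the vector library. Counting intervals of genes next to each other in the order did not overlap in the PKP2 library, but in the vector library those of TNFRSF10A and FADD, of FAS and BIRC2, and of XIAP and CFLAR did. The annotated transcripts of CFLAR (14672 bases) and XIAP (8591 bases) are long, so their places depend on the transcript chosen. So does the top place of CASP8, whose principal transcript of 1629 bases is not its longest. Per length of the principal transcripts, FADD to CASP8 was 0.202 in the PKP2 library and 0.236 in the vector library. With the longest transcripts it was 0.363 and 0.424, and on that scale TNFRSF10B stood above CASP8.

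Part of the spread among the 8 genes ran along with base composition. Across 11610 genes averaging 100 counts or more the log2 ratio went down with the GC content of the transcript (Spearman's rho of -0.61; the points are genes of the same 2 libraries, not independent replicates). BIRC2, XIAP and FAS have the lowest GC content of the 8, at 38.0%, 39.0% and 39.1%, and FADD the highest, at 58.6%, with CFLAR at 44.1%. Subtracting a lowess curve on GC content moved BIRC2 to 0.20 (interval 0.04 to 0.36), XIAP to 0.06 (interval -0.13 to 0.24), FAS to -0.21 (interval -0.42 to -0.005) and FADD to 0.11 (interval -0.05 to 0.28). TNFRSF10A, near the middle in GC content at 50.1%, stayed at 0.41 (interval 0.28 to 0.53). CASP8 moved to 0.03 (interval -0.06 to 0.11) and TNFRSF10B to 0.08 (interval 0.02 to 0.14). The median of the 8 was then 0.10, beside -0.007 over the well-counted genes, and FAS rather than FADD was the 1 gene below 0. With either correction 4 of the 8 intervals lay wholly above 0 (CFLAR, TNFRSF10A, BIRC2 and TNFRSF10B) and 1, that of FAS, wholly below, so XIAP and CASP8 no longer had an interval above 0. The share of all well-counted genes with such intervals was not computed after correction. Before correction it was 25.9% above 0 and 28.8% below, so these counts are a description.

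CFLAR was at 0.92 (interval 0.78 to 1.06) after the GC correction. Relative to the median of the 100 genes most like it in GC content and length it was at 0.85 (interval 0.72 to 0.99), under 2-fold. Of those 100 nearest genes 3 had a ratio at least as high as that of CFLAR, and the middle 80% of them lay between -0.36 and 0.59. After either correction none of the 8 genes was 2-fold higher, and none was 2-fold lower. With the GC correction 2.35% of the well-counted genes were past 2-fold on the higher side and 3.49% on the lower, and relative to the nearest genes 2.44% and 3.47%. CFLAR remained the highest of the 8 and the one gene past 1.5-fold under each, where 6.3% and 6.61% of the well-counted genes were that high. TNFRSF10A was next at 0.36 relative to its nearest genes, 11 of 100 of which had a ratio at least as high.

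**Figure D2:**
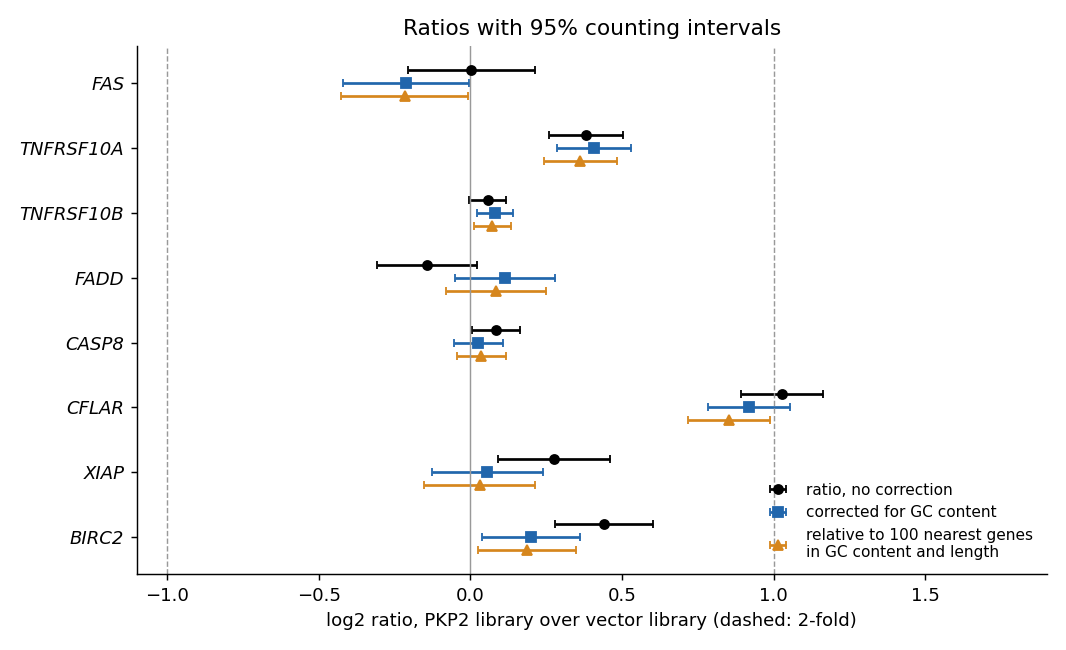
Log2 ratio of the PKP2 library over the vector library for the 8 genes, with no correction (circles), corrected for GC content (squares) and relative to the 100 most similar genes in GC content and length (triangles), with bars for the 95% counting interval. CFLAR lies highest under all 3, at 1.03 with no correction and under 2-fold, at 0.92 and 0.85, with the corrections. XIAP and BIRC2 shift towards 0, and TNFRSF10A stays between 0.36 and 0.41.

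**Figure D3:**
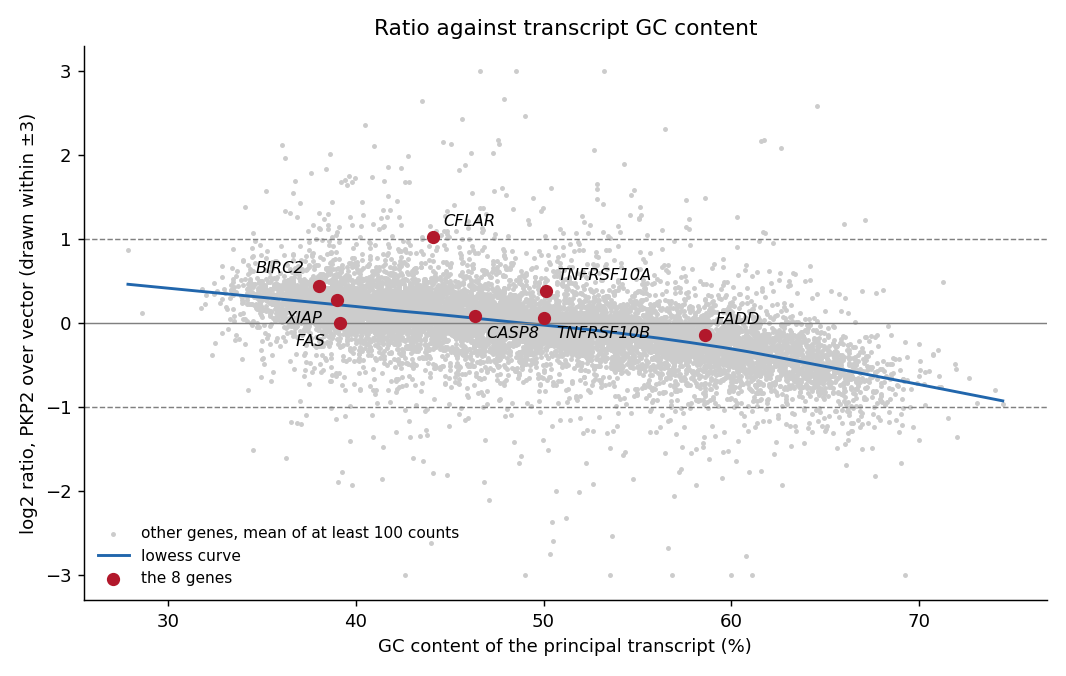
Log2 ratio of the PKP2 library over the vector library against the GC content of the principal transcript for genes averaging 100 counts or more (grey), with the lowess curve (blue) and the 8 genes (red); ratios beyond ±3 are drawn at ±3. BIRC2 and XIAP lie close above the curve at the low-GC end, FAS below it, and CFLAR well above it at 44.1% GC.

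Shared sequence limits some of these counts, since how the counting treated shared reads and strand is not given in the sources used here. CFLAR shares 21.0% of its 31-base stretches with other listed genes, XIAP 11.4%, TNFRSF10A 10.4%, FAS 8.13%, CASP8 5.78%, TNFRSF10B 4.37%, BIRC2 0.778% and FADD none. For CFLAR the largest partner was the pseudogene IMPDH1P10, at 6.46%, followed by CFLAR-AS1 at 3.02% and TRIM56 at 1.78%. TRIM56, an antiviral ubiquitin ligase gene looked up after its values were seen, had 260 counts in the PKP2 library and 3110 in the vector library, and its part in the CFLAR ratio was not tested. No exon of the 8 genes overlaps a listed gene on the same strand, but 5 listed genes overlap one on the opposite strand. CFLAR-AS1 had 0 counts in the PKP2 library and 6 in the vector library, and IMPDH1P10 had 3 and 11, few beside the counts of CFLAR. ACTA2, the smooth muscle actin gene that overlaps FAS, had 359 and 591 counts, and FAS and ACTA2 summed had a ratio of -0.26 (interval -0.40 to -0.12). TNFRSF10A-DT, with 106 and 123 counts, and RHOBTB2, which overlaps TNFRSF10B, with 309 and 400, were small beside their partners.

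The rest of the pathway was taken from 10 lists. Of 70 genes in these lists, 62 were listed in the files and 55 were well-counted. Among these 55, 1 was at least 2-fold higher, 2 were at least 2-fold lower and 52 lay within 2-fold, with a median ratio of 0.09. These counts are near the 2.47% and 4.61% of all well-counted genes past 2-fold on the higher and lower sides. Those 3 genes, NAIP, TNFRSF25 and BIRC7, are thinly counted.

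The ligands of the death receptors had few counts or none. TNF had 0 counts in the PKP2 library and 3 in the vector library, and TNFSF15 had 0 and 5. TNFSF12, which encodes TWEAK, had 67 counts in the PKP2 library and 65 in the vector library, a ratio of 0.28 (interval -0.23 to 0.80). FASLG, LTA and TNFSF10, the TRAIL gene, are not among the listed IDs and were not analysed here.

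Among the other death and decoy receptors, 1 of 6 that were well-counted was at least 2-fold lower and none higher, with a median of 0.02, beside 4.61% and 2.47% of all well-counted genes. TNFRSF25, the death receptor DR3, was the lowest at -1.79 (13 counts in the PKP2 library and 53 in the vector library, interval -2.79 to -0.90), or -1.31 with the GC correction. TNFRSF21, which encodes DR6, was the highest at 0.54 (267 and 217 counts, interval 0.27 to 0.80). TNFRSF1A, the main TNF receptor gene, had 2270 and 3049 counts and lay at -0.19 (interval -0.27 to -0.11), which was 0.03 after the GC correction. TNFRSF11B, the secreted decoy osteoprotegerin, which also binds TRAIL, was at 0.36 (interval 0.24 to 0.48).

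All 11 adaptors and death-fold regulators lay within 2-fold, as did 14859 of the 15991 well-counted genes, with a median of 0.09. TRADD, the adaptor of the TNF receptor, was the lowest at -0.77 (171 counts in the PKP2 library and 344 in the vector library, interval -1.04 to -0.50), and at -0.26 with the GC correction, since its transcript has a GC content of 65.0%. FAIM, a Fas apoptosis inhibitory molecule, was the highest at 0.46 (450 and 386 counts, interval 0.26 to 0.66). RIPK1, the kinase of the TNF receptor complex, had a ratio of 0.09 (interval -0.05 to 0.24).

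The 7 other caspases with enough counts also lay within 2-fold, beside 14859 of the 15991 well-counted genes, with a median of 0.09. CASP6, an executioner caspase, had 255 counts in the PKP2 library and 293 in the vector library, with a ratio of 0.04 (interval -0.21 to 0.28). CASP4, an inflammatory caspase that senses lipopolysaccharide, was the lowest at -0.22 (1157 and 1593 counts, interval -0.34 to -0.11). CASP9, the initiator of the mitochondrial route, was at 0.23 (interval 0.04 to 0.43).

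In the mitochondrial arm APAF1, the scaffold on which caspase 9 is activated, had 920 counts in the PKP2 library and 570 in the vector library, a ratio of 0.93 (interval 0.78 to 1.08), the nearest to that of CFLAR among the lists. It was at 0.83 with the GC correction. ENDOG, a mitochondrial nuclease with a transcript of 67.7% GC, lay on the other side at -0.95 (141 and 320 counts), and at -0.31 with the GC correction. BID, the substrate through which caspase 8 reaches mitochondria, had 657 and 764 counts and lay at 0.02 (interval -0.13 to 0.17). CYCS, cytochrome c, was at 0.15 (interval 0.10 to 0.19), so the median of the 5 genes was 0.02.

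The other IAP genes split. NAIP had 35 counts in the PKP2 library and 1 in the vector library, which puts the ratio at 5.37 (interval 2.79 to 10.71). Other genes hold 40.1% of its 31-base stretches. Its pseudogene NAIPP2, which holds 36.2% of them, had 44 and 37 counts. BIRC7, the livin gene, had 13 and 31 counts and lay at -1.02 (interval -2.08 to -0.04), or -0.49 with the GC correction. BIRC5, which encodes survivin, was at -0.36 (638 and 967 counts, interval -0.51 to -0.22) and the giant IAP gene BIRC6 at 0.28 (5777 and 5614 counts, interval 0.22 to 0.33). Of the IAP antagonists, DIABLO had a ratio of 0.02 (interval -0.13 to 0.17) and HTRA2 one of -0.23 (interval -0.39 to -0.08).

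The genes that control ubiquitin chains on the TNF receptor complex had a median of -0.26, with 3 of 10 above 0, where 47.3% of all well-counted genes were above 0. None was past 2-fold, where 2.47% of these genes were past it on the higher side and 4.61% on the lower. RBCK1, the HOIL-1 subunit of the linear ubiquitin ligase, was the lowest at -0.59 (1164 counts in the PKP2 library and 2071 in the vector library, interval -0.70 to -0.49), and TNFAIP3, which encodes the deubiquitinase A20, the highest at 0.33 (4833 and 4538 counts, interval 0.27 to 0.39). With the GC correction RBCK1 was at -0.10 and the median of the list at -0.005. MLKL, the executor of necroptosis, had 772 and 670 counts and lay at 0.44 (interval 0.29 to 0.59), while its upstream kinase gene RIPK3 had 2 and 0. Of 7 caspase substrates and execution genes all lay within 2-fold, beside 14859 of the 15991 well-counted genes. ROCK1, a kinase activated by caspase cleavage, was at 0.53 (interval 0.44 to 0.62) and PARP1 at -0.04 (interval -0.08 to -0.01).

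**Figure D4:**
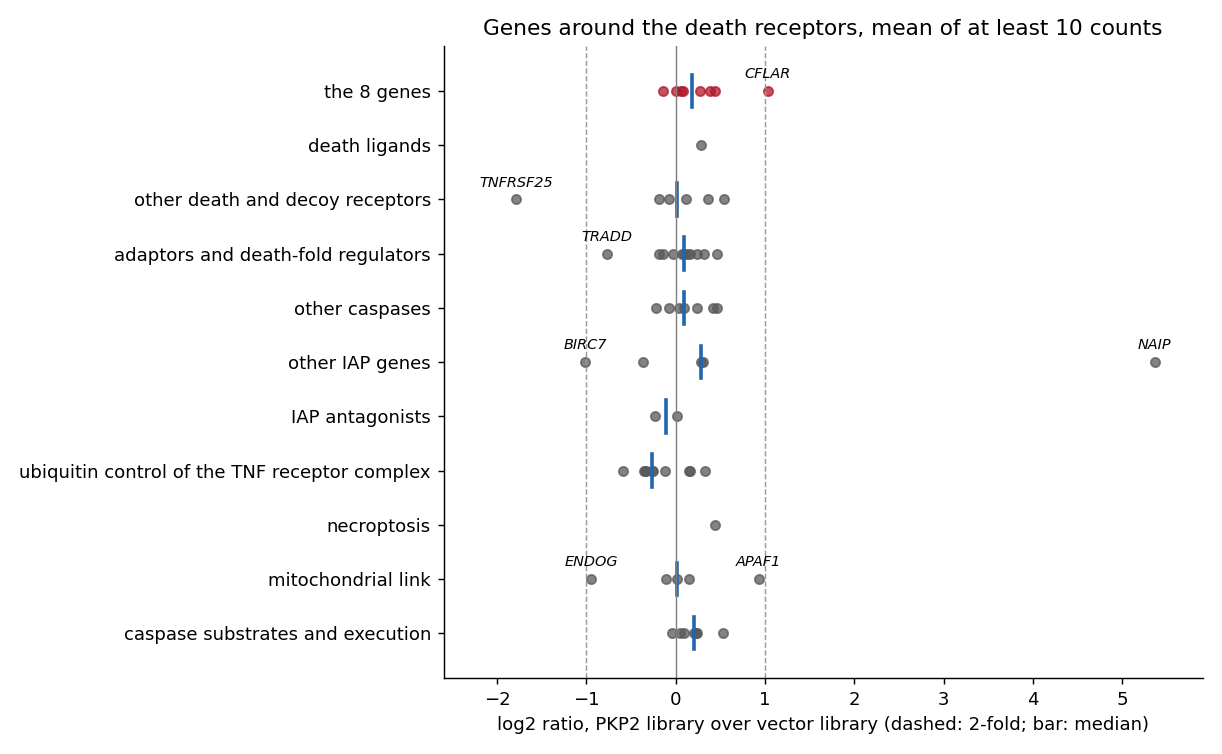
Log2 ratio of the PKP2 library over the vector library for the 8 genes (red) and for 55 genes of 10 pathway lists (grey), all well-counted; blue bars mark medians of lists with 2 or more genes and dashed lines 2-fold. NAIP lies far to the right on 35 and 1 counts, TNFRSF25 to the left, APAF1 close to CFLAR, and most other points lie within 2-fold.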

How the data were processed

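Per the labels' protocols, 1 TruSeq RNA library was made for each group. The submitters' processing notes name Bowtie 0.12.2, GRCh37 and hg19. Which program and annotation gave the counts, and whether strand was used, is not given in the sources used here. The deposited values are unnormalized counts per Ensembl gene ID, per the file headers. They are classed as estimated counts because of a decimal in 1 damaged row of the files as deposited. That row and the TGFB1 row, whose value is blank, were left out of each file, so 2 rows were dropped, and no rounding was needed.

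Library sizes were totals times TMM factors (0.991 for PKP2 and 1.01 for vector; edgeR 4.0.16 in R 4.3.3), and edgeR served no other step. With 1 library per group no quasi-likelihood test and no p-value was computed. Ratios are of CPM, with no pseudocount. The 95% intervals are exact binomial (Clopper-Pearson) for ratios of 2 counts, exact Poisson for levels and exact conditional for differences between genes. Ratios were computed for every listed gene, but the text gives no fold for a gene with 3 or fewer counts in both libraries. A count of 3 is 0.149 CPM in the PKP2 library and 0.126 CPM in the vector library. Transcript length and GC content came from GENCODE release 29 by gene ID, whose build differs from that of the files, so no coordinates are given. The principal transcript by APPRIS was used. The lowess curve (fraction 0.3) and the 100 nearest genes used genes averaging 100 counts or more. The ratio step was tested on simulated counts. DESeq2 1.42.0 supplied alternative size factors.

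The members and lists were chosen with earlier results of these data known. Genes named were the 8 members, PKP2, overlapping genes, listed genes past 2-fold and the highest and lowest of each list. Other genes named were chosen after their values were seen. Some listed genes are left out of the text.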

Additional observations from a re-analysis of the deposited data

How the results depend on the processing

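Over TMM, DESeq2, upper-quartile and library-total scaling no ratio of the 8 genes moved by more than 0.0453 on the log2 scale, and CFLAR lay between 1.00 and 1.05. Its ratio was 1.00 with 1 CPM added, 0.92 with 5 CPM added or with the GC correction, 0.85 relative to the nearest genes, 1.02 summed with CFLAR-AS1 and 1.01 summed with IMPDH1P10; the sums on the opposite strand were chosen after seeing the data. Members at least 2-fold higher numbered 1, against 0 with 5 CPM added, the GC correction, the nearest genes or a 3-fold threshold. FADD changed sign, within counting error, to 0.11 with the GC correction and 0.09 relative to the nearest genes. FAS went from 0.003 to -0.21 and -0.22 under these corrections, and to -0.26 summed with ACTA2. BIRC2 went from 0.44 to 0.20 with the GC correction and 0.18 relative to the nearest genes, and XIAP from 0.27 to 0.06 and 0.03. Among all genes 395 were at least 2-fold higher and 737 lower, against 180 and 249 with 1 CPM added, 106 and 81 with 5 CPM added, 1858 and 2800 with no filter, 195 and 304 with a mean of at least 50 counts, 1098 and 2060 at 1.5-fold and 114 and 251 at 3-fold. The CFLAR to CASP8 ratio in the PKP2 and vector libraries was 0.0574 and 0.0299 per length of the principal transcript, 0.103 and 0.0537 with the longest transcript and 0.517 and 0.269 in counts alone, which follows from the lengths used. Summing with genes overlapping on the same strand gave no value, since none is listed. No paired analysis was possible because each group has 1 library, and no library could be left out for the same reason. Depth limits mainly the thinly counted NAIP, BIRC7, TNFRSF25 and TNFRSF10C.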

Other observations

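The protein-coding genes nearest to the 8 genes, within 3 places on either side, gave a further set of values, all looked up after the data were seen. Next to TNFRSF10A, CHMP7 and R3HCC1 had ratios of -0.11 (interval -0.26 to 0.04) and -0.05 (interval -0.23 to 0.12). In the third place, LOXL2, a lysyl oxidase-like gene, had 344 counts in the PKP2 library and 772 in the vector library, a ratio of -0.93 (interval -1.12 to -0.74). Near FAS, the interferon-stimulated gene IFIT2 had 96 and 254 counts and lay at -1.17 (interval -1.52 to -0.82), and the lysosomal lipase gene LIPA had 3595 and 3228, a ratio of 0.39 (interval 0.32 to 0.46). Near BIRC2, the coactivator gene YAP1 had a ratio of 0.25 (interval 0.16 to 0.35) and TMEM123 one of 0.23 (interval 0.18 to 0.28). Near CASP8, TRAK2, an adaptor of mitochondrial transport, had 3044 and 2762 counts and lay at 0.38 (interval 0.30 to 0.45). Just before FADD, ANO1 had 78 and 40 counts and lay at 1.20 (interval 0.63 to 1.79). Also near FADD, PPFIA1 was at 0.26 (interval 0.15 to 0.37), LTO1 at -0.64 (interval -0.95 to -0.35) and CTTN at -0.40 (interval -0.47 to -0.33). Some other neighbours are left out of the text.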
